A study of Mus musculus with 10 samples.

Results

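The 6 genes Bpifb1, Mettl21e, Prr5, Ehd3, Gdpd2 and Zhx3 were chosen from 29583 genes because each was strongly higher in all 6 libraries of MC3T3-E1 cells cultured with β-ecdysterone and absent or low in the libraries at 0 μM. All 6 names were found in the count table, 1 Ensembl gene each. The difference between treated cells and 0 μM therefore chose them and is described here without a test. Their differences between days and between doses of the treated cells, their levels in the untreated libraries, and their relatives and neighbours were not part of that choice.

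MC3T3-E1 is an established line of osteoblast precursors from mouse skull, and β-ecdysterone is a steroid found in plants and insects. The labels give the strain as C57BL/6, the age as newborn and the source as mesenchymal stem cells of bone marrow, which is not the origin usually given for the line. Third-generation cells were cultured in 10 cm dishes at 0, 100, 150 or 200 μM for 5 or 10 days, and poly(A) RNA was sequenced. The labels state n = 3 for the RNA extraction, but each dose was sequenced as a single library on each day. This gives 6 treated libraries and 2 libraries at 0 μM. A further 2 libraries, A-5 and B-4, are labelled untreated and carry no time. Within a day the 3 doses served as replicates, and nothing states that the dishes were separate cultures, so p-values measure only the spread between these libraries. Library totals ranged from 27108562 to 58218009 counts. A floor of 3 counts corresponded to 0.0502 to 0.118 CPM, which covers counting error only. CPM is the count scaled to library size after TMM normalization, which corrects for differences in RNA composition, and FPKM is the authors' value per kilobase of transcript.

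The untreated libraries A-5 and B-4 differed from each other. Relative to A-5, B-4 was over 2-fold higher for 11.3% of the 16794 genes tested for treatment and over 2-fold lower for 10.8%. For the genes called higher in treated cells, the level in B-4 was a median of 45.2% of the treated mean (quartiles 16.5% and 86.2%). This share was not computed for A-5, and the call itself places these genes over 2-fold above 0 μM. Both untreated libraries were therefore left out of the tests of treatment, day and dose. Their values are given one by one, and they enter the search for genes of similar pattern and the alternative fits that use them as controls.

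The proteins act in different parts of the cell. Bpifb1 is a secreted protein of the BPI fold family, lipid-binding proteins known from airway and nasal secretions. Mettl21e belongs to the methyltransferases that modify lysines of other proteins and is known from skeletal muscle. Prr5, also called Protor-1, is a subunit of mTORC2, the kinase complex that phosphorylates Akt, Sgk1 and protein kinase C. Ehd3 is an ATPase with an EH domain that shapes membranes during endocytic recycling. Gdpd2 is a membrane glycerophosphodiester phosphodiesterase first described for its role in osteoblast differentiation. Zhx3 is a nuclear protein with zinc fingers and homeodomains that represses transcription and interacts with the A subunit of nuclear factor Y. In the deposited Gene Ontology terms, the only term that 2 of the genes shared was positive regulation of osteoblast differentiation, held by Gdpd2 and Zhx3 and by 29 genes of the table in all.

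By GENCODE M21 on GRCm38, matched by Ensembl identifier, the genes lie on 5 chromosomes. Bpifb1 (ENSMUSG00000027485) lies on the plus strand at chr2:154190818-154220369, and Zhx3 (ENSMUSG00000035877) lies on the minus strand of the same chromosome at chr2:160748708-160872998. Mettl21e (ENSMUSG00000046828) is at chr1:44204070-44218961 on the minus strand. Prr5 (ENSMUSG00000036106) is at chr15:84669620-84703673, Ehd3 (ENSMUSG00000024065) at chr17:73804134-73832094 and Gdpd2 (ENSMUSG00000019359) at chrX:100729873-100738895, all on the plus strand. The build used for the counts is not given in the sources used here.

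As the genes had been chosen for one shared rise, their promoters were searched on both strands for AGAACA (half-site of the glucocorticoid, androgen and progesterone receptors), AGGTCA (half-site of the estrogen receptor and other nuclear receptors), TGTGGT (core of Runx sites) and the letters of a TATA box, TATAAA. RefSeq (GRCm38.p6) gave 8 promoters for 5 of the 6 genes, each of 300 bases, and Mettl21e was not matched. Of all 32851 promoters in the table, 19.0% held AGAACA, 16.3% AGGTCA, 16.8% TGTGGT and 13.6% TATAAA. The 4 promoters that held a match are printed 5′ to 3′ on the plus strand, 250 bases before the start and 20 after it, with the matches in capitals. TGACCT in the first line is the estrogen receptor half-site read on the other strand. ACCACA in the second line is, likewise, the Runx core.
Bpifb1, chr2:154190568-154190837: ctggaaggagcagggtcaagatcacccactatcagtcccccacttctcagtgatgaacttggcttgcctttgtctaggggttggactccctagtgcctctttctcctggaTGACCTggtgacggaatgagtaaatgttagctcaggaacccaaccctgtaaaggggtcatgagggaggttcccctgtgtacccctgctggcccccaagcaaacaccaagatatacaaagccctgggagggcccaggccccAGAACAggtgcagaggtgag
Prr5, second start, chr15:84680748-84681017: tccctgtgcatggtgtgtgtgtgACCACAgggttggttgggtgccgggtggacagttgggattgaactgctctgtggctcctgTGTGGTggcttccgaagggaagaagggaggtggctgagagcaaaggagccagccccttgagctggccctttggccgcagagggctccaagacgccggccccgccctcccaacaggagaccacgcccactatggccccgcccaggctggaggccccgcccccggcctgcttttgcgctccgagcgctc
Ehd3, chr17:73804591-73804860: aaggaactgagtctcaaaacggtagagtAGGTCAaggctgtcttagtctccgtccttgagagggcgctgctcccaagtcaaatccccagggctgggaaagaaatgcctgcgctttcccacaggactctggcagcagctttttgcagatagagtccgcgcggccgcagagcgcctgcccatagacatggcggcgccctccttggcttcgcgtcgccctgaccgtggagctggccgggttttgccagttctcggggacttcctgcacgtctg
Gdpd2, first start, chrX:100729597-100729866: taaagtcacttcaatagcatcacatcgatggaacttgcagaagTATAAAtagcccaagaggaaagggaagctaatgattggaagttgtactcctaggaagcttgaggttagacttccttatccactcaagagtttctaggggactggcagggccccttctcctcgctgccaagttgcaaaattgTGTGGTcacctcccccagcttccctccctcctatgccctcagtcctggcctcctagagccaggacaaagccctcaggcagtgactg
The first Bpifb1 promoter held AGAACA at the start itself and AGGTCA at position -140, counted from the start. The Ehd3 promoter held AGGTCA at position -222. The second Prr5 promoter held TGTGGT at -167 and -227, and the first Gdpd2 promoter held TGTGGT at -66 and the letters TATAAA at -207. The Zhx3 promoter held none of the 4 motifs, nor did the second starts of Bpifb1 and Gdpd2 or the first start of Prr5. No motif was present in all 5 genes. A match describes letters in this window and not a bound site. The promoters also differed in CpG content. The Zhx3 promoter held 35 CpG dinucleotides and that of Ehd3 24, at the 93.0 and 80.0 percentile of all promoters. The first and second starts of Prr5 held 21 and 17, at the 75.2 and 68.6 percentile. The first starts of Bpifb1 and Gdpd2 held 3 and 2, at the 23.3 and 14.1 percentile. Their second starts held 1 and 9, at the 5.43 and 54.2 percentile.

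Bpifb1, Mettl21e and Prr5 had no read in either library at 0 μM and were read in all 6 treated libraries. Bpifb1 had 65, 387 and 165 counts at 100, 150 and 200 μM on day 5 and 554, 1987 and 1881 counts on day 10. These were 2.18, 6.48 and 5.44 CPM on day 5 and 21.8, 37.3 and 36.1 CPM on day 10. The highest day 5 library thus lay below the lowest day 10 library, and 100 μM was the lowest dose on both days. Against the floor of 3 counts, the mean of the treated libraries was at least 79.7-fold higher on day 5 and at least 335-fold higher on day 10.

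Mettl21e was more even across the treated libraries. It had 240, 967 and 322 counts at 100, 150 and 200 μM on day 5 and 688, 1029 and 1396 counts on day 10. On the CPM scale these were 8.04, 16.2 and 10.6 on day 5 and 27.1, 19.3 and 26.8 on day 10. The days did not overlap, but the 150 μM libraries of the 2 days were only 1.19-fold apart. The bounds on its rise over 0 μM were at least 197-fold on day 5 and at least 258-fold on day 10.

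Prr5 had the fewest reads of these 3 genes on day 10. It had 74, 260 and 133 counts at 100, 150 and 200 μM on day 5 and 270, 462 and 528 counts on day 10, or 2.48, 4.35 and 4.39 CPM and then 10.6, 8.68 and 10.1 CPM. The days did not overlap for Prr5 either. Its level was at least 63.4-fold higher than 0 μM on day 5 and at least 104-fold higher on day 10.

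**Figure D1:**
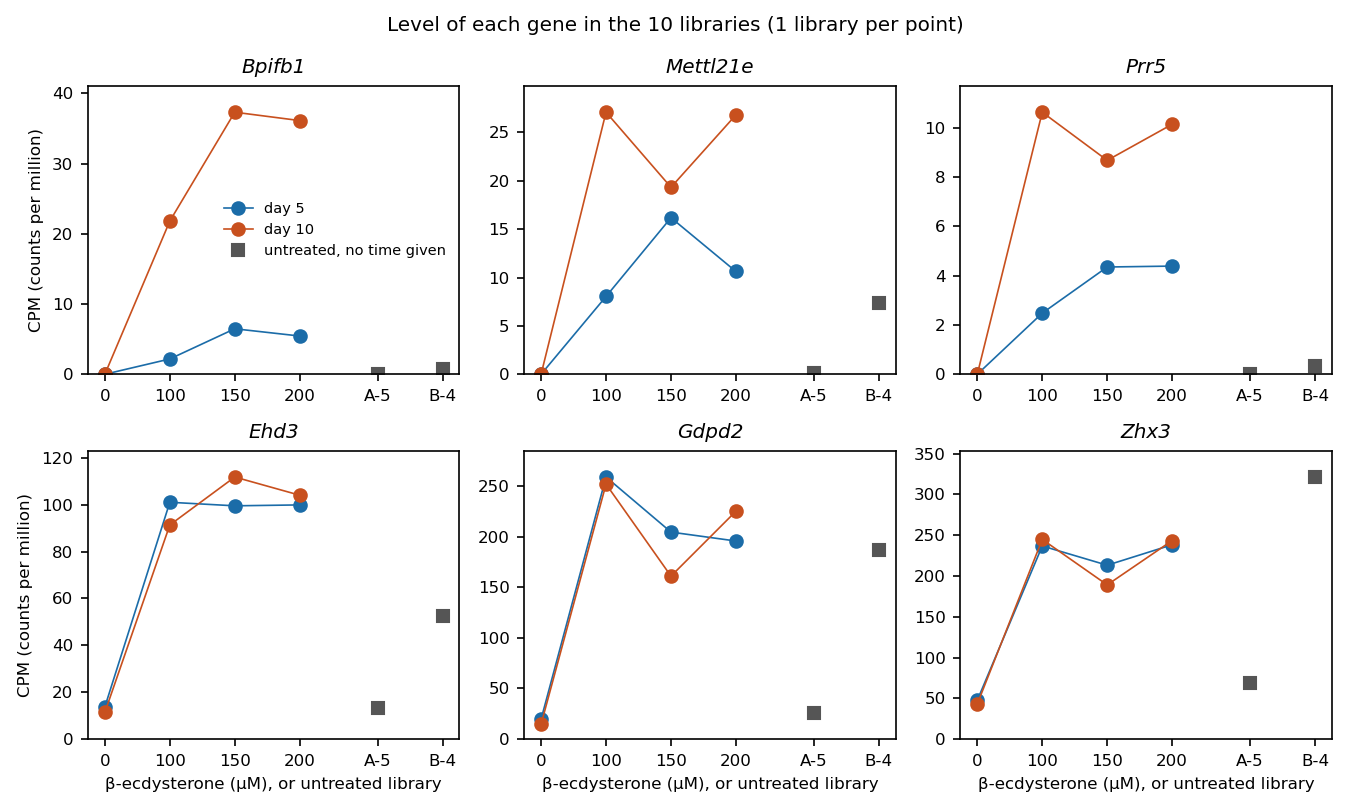
Level of each gene in CPM (vertical axis, from 0) in each of the 10 libraries, by dose of β-ecdysterone in μM and day, with the untreated libraries A-5 and B-4 at the right. The day 10 points of Bpifb1, Mettl21e and Prr5 lie above their day 5 points at each dose, the day 5 and day 10 points of Ehd3, Gdpd2 and Zhx3 intermix, and B-4 exceeds all treated points for Zhx3.

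Ehd3, Gdpd2 and Zhx3 were read at 0 μM and rose from that level. Ehd3 had 700 and 361 counts at 0 μM on days 5 and 10 (13.8 and 11.4 CPM). At 100, 150 and 200 μM it had 3015, 5945 and 3027 counts on day 5 (101, 99.5 and 99.9 CPM) and 2319, 5950 and 5415 counts on day 10 (91.3, 111.8 and 104 CPM). The treated mean was 7.28-fold that of 0 μM on day 5 and 8.97-fold on day 10, and the lowest treated library was far above both libraries at 0 μM. The 6 treated levels of Ehd3 had a coefficient of variation of 6.58%, against 87.0% for Bpifb1.

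Gdpd2 rose the most of these 3 genes. It had 999 and 463 counts at 0 μM on days 5 and 10 (19.6 and 14.6 CPM). The treated libraries at 100, 150 and 200 μM had 7730, 12222 and 5932 counts on day 5 (259, 205 and 196 CPM) and 6398, 8572 and 11723 counts on day 10 (252, 161 and 225 CPM). The treated mean was 11.2-fold that of 0 μM on day 5 and 14.5-fold on day 10. The highest level on each day was at 100 μM.

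Zhx3 had 2423 and 1364 counts at 0 μM on days 5 and 10 (47.6 and 43.1 CPM). It had 7066, 12735 and 7219 counts at 100, 150 and 200 μM on day 5 (237, 213 and 238 CPM) and 6215, 10062 and 12668 counts on day 10 (245, 189 and 243 CPM). The rise was the smallest of the 6 genes, 4.82-fold on day 5 and 5.24-fold on day 10, and the 150 μM library was the lowest treated library on both days.

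The choice of the genes fixed their place among all genes, so nothing is read from it. In the comparison of the 6 treated libraries with the 2 at 0 μM, edgeR's quasi-likelihood test called 13.4% of 16794 genes higher and 5.98% lower. A call needed a log2 fold change past 1 in size together with an adjusted p (Benjamini-Hochberg) below 0.05. By fitted log2 fold change Mettl21e ranked 2, Bpifb1 3 and Prr5 6, but without a read at 0 μM these fitted values depend on the prior count. Gdpd2 ranked 658, Ehd3 892 and Zhx3 1264.

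Per length of transcript, the 3 genes that were read at 0 μM were also the 3 with the higher levels in treated cells. The mean FPKM of the treated libraries was 75.9 ± 12.5 for Gdpd2, 27.7 ± 2.95 for Zhx3 and 24.2 ± 1.95 for Ehd3 (SD, n = 6). The ranges of Zhx3 and Ehd3 overlapped. Bpifb1 was at 9.59 ± 8.33, Mettl21e at 4.87 ± 2.07 and Prr5 at 3.27 ± 1.60 FPKM (SD, n = 6), with overlapping ranges. At 0 μM on days 5 and 10 the FPKM of Gdpd2 was 7.18 and 5.32, that of Zhx3 6.01 and 5.50 and that of Ehd3 3.43 and 2.83. Zhx3 was therefore close to Gdpd2 without the compound and well below it with the compound. In FPKM, Bpifb1 stood at 1.15, 3.63 and 2.96 on day 5 and at 10.9, 19.5 and 19.5 on day 10 for 100, 150 and 200 μM. On day 5 it was of the same order as Mettl21e (2.20, 4.66 and 2.95 FPKM), and on day 10 it was above Mettl21e (6.92, 5.14 and 7.36 FPKM) at every dose.

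Among the 6 treated libraries, 2 of the 6 genes were called higher on day 10 than on day 5, both of which had no read at 0 μM. Of 16020 genes tested, 0.805% were called higher and 0.131% lower on day 10 than on day 5. Bpifb1 rose by a log2 fold change of 2.77 (SE 0.27, 95% interval 2.15 to 3.39), or 6.81-fold, with an edgeR adjusted p of 0.00519. This rise ranked 16 of all genes tested for day. Its day 10 level was 10.0, 5.76 and 6.64 times the day 5 level at 100, 150 and 200 μM. Prr5 rose by a log2 fold change of 1.41 (SE 0.23, 95% interval 0.89 to 1.93), or 2.66-fold, with an edgeR adjusted p of 0.0237, and was higher at each of the 3 doses (4.29, 1.99 and 2.31 times). The call for Prr5 was lost without any 1 of the 4 libraries at 100 or 200 μM. The log2 fold change was then 1.16 and 1.47 without those of day 5 and 1.18 and 1.53 without those of day 10, with an edgeR adjusted p of 0.0696, 0.0818, 0.0686 and 0.103 in the same order. Without either library at 150 μM it was kept (edgeR adjusted p = 0.0289 and 0.0302). Mettl21e had a log2 fold change of 1.07 (SE 0.25, 95% interval 0.50 to 1.64) and an edgeR adjusted p of 0.0700, which missed the limit although day 10 was higher at each of the 3 doses (3.37, 1.19 and 2.52 times).

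No difference between days was detected for the other 3 genes, and their intervals were narrow. The log2 fold change of day 10 over day 5 was 0.04 for Ehd3 (95% interval -0.19 to 0.26, edgeR adjusted p = 0.892), which bounds a change at 1.20-fold. It was -0.03 for Gdpd2 (95% interval -0.40 to 0.33, edgeR adjusted p = 0.945) and -0.02 for Zhx3 (95% interval -0.31 to 0.28, edgeR adjusted p = 0.964). None of these 3 genes moved in 1 direction between days at all 3 doses. The ratio of day 10 to day 5 at 100, 150 and 200 μM was 0.904, 1.12 and 1.04 for Ehd3, 0.973, 0.787 and 1.15 for Gdpd2, and 1.03, 0.887 and 1.02 for Zhx3.

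**Figure D2:**
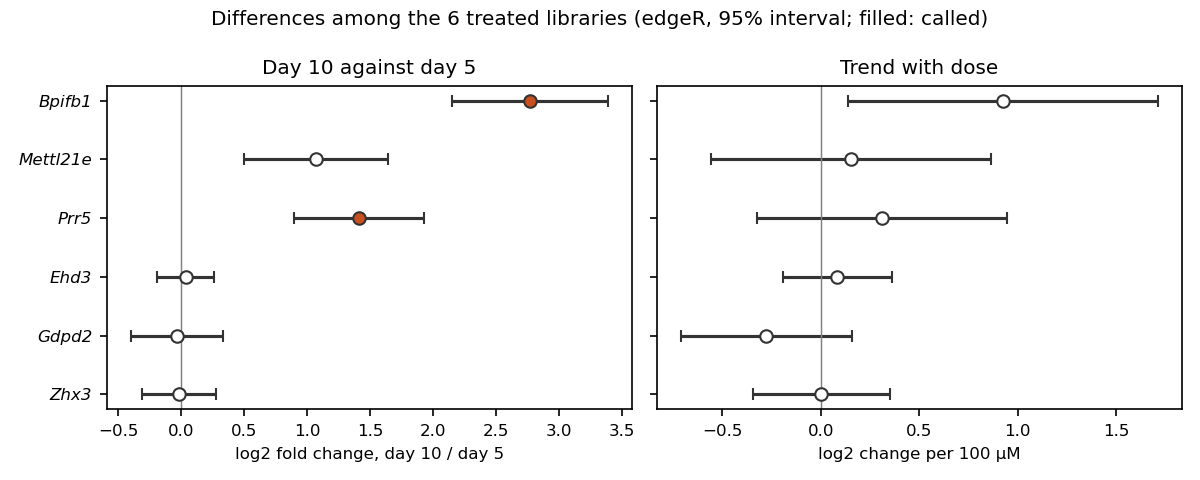
Left, log2 fold change of day 10 over day 5 in the 6 treated libraries. Right, log2 change per 100 μM. Points are edgeR estimates, bars are 95% intervals and filled points are called. The day intervals of Bpifb1, Prr5 and Mettl21e lie above 0 and those of Ehd3, Gdpd2 and Zhx3 span it, while of the dose intervals that of Bpifb1 alone excludes 0.

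No trend with dose between 100 and 200 μM was called for any of the 6 genes. Over all 16020 genes edgeR called 0 (0.0%), with 380 genes at an unadjusted p under 0.05, and DESeq2 called 2. Bpifb1 had the steepest slope, a log2 change of 0.93 per 100 μM (95% interval 0.14 to 1.71, edgeR adjusted p = 0.996). This slope was 0.48 without the day 5 library at 100 μM. The slope was 0.31 for Prr5 (95% interval -0.32 to 0.95), 0.15 for Mettl21e (-0.56 to 0.86) and -0.28 for Gdpd2 (-0.71 to 0.16). It was 0.08 for Ehd3 (-0.19 to 0.36) and 0.00 for Zhx3 (-0.35 to 0.35). For Ehd3 and Zhx3 the interval thus held a change of up to 1.29-fold and 1.27-fold per 100 μM, and for Mettl21e of up to 1.82-fold. All 6 genes were raised at 100 μM on day 5, the lowest dose and earliest time, but their choice required this, so nothing is read from it.

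Over the 6 treated libraries the correlation of log2 CPM was 0.96 between Bpifb1 and Prr5, 0.95 between Mettl21e and Prr5 and 0.90 between Bpifb1 and Mettl21e, and the points share day and library. Gdpd2 and Zhx3 had a correlation of 0.82, while Ehd3 had -0.72 with Gdpd2 and -0.71 with Zhx3 and lay between -0.09 and 0.28 with the other 3 genes. For Gdpd2, Zhx3 and Ehd3 these correlations describe small differences, since their treated levels spanned 1.61-fold, 1.29-fold and 1.22-fold.

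The untreated libraries differed from each other for every gene. A-5 was nearer to 0 μM than to treated cells for all 6 genes, with 3 counts of Bpifb1, 3 of Mettl21e and 0 of Prr5. It held 409 counts of Ehd3 (13.4 CPM), 775 of Gdpd2 (25.5 CPM) and 2077 of Zhx3 (68.2 CPM), which were 13.3%, 11.8% and 30.0% of the treated mean, against 12.4%, 7.92% and 19.9% at 0 μM. In FPKM these 3 genes stood at 3.37, 9.39 and 8.65 in A-5. B-4 held 24 counts of Bpifb1 (0.795 CPM), 223 of Mettl21e (7.38 CPM), 10 of Prr5 (0.331 CPM), 1581 of Ehd3 (52.4 CPM), 5642 of Gdpd2 (187 CPM) and 9701 of Zhx3 (321 CPM). All 6 genes were thus above the levels at 0 μM in B-4, although the label of this library gives no compound.

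The genes held different places in B-4 relative to treated cells. Zhx3 stood at 141% of the treated mean, above all 6 treated libraries, and Gdpd2 at 86.4%, above 1 of 6. Ehd3 stood at 51.7% and Mettl21e at 41.0%, below all 6 treated libraries. Prr5 and Bpifb1 stood at 4.88% and 4.36%. Bpifb1 and Prr5, the genes called higher on day 10 than on day 5 in treated cells, were thus the lowest in B-4. Mettl21e was also higher on day 10 at each dose, though not called, and was not among the lowest. In FPKM the shares were 119% for Zhx3, 86.2% for Gdpd2, 51.5% for Ehd3, 41.1% for Mettl21e, 4.55% for Prr5 and 4.19% for Bpifb1, in the same order.

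The ratio of B-4 to A-5 was 74.9 for Mettl21e (95% counting interval 25.3 to 366), 8.06 for Bpifb1 (2.45 to 41.8), 7.34 for Gdpd2 (6.81 to 7.92), 4.71 for Zhx3 (4.49 to 4.94) and 3.90 for Ehd3 (3.49 to 4.35). For Prr5, with no count in A-5, the level in B-4 was 3.36-fold the floor of 3 counts in A-5. The lower end of the 95% counting interval of its ratio was 2.26. These ratios compare 2 libraries and have no replicate check. When the untreated libraries took the place of those at 0 μM, the fitted log2 fold change of treated cells was 5.34 for Bpifb1, 5.33 for Prr5, 2.25 for Mettl21e, 1.61 for Ehd3, 1.01 for Gdpd2 and 0.21 for Zhx3. These values average 2 unlike libraries. For Zhx3, A-5 stood below all 6 treated libraries and B-4 above all 6.

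**Figure D3:**
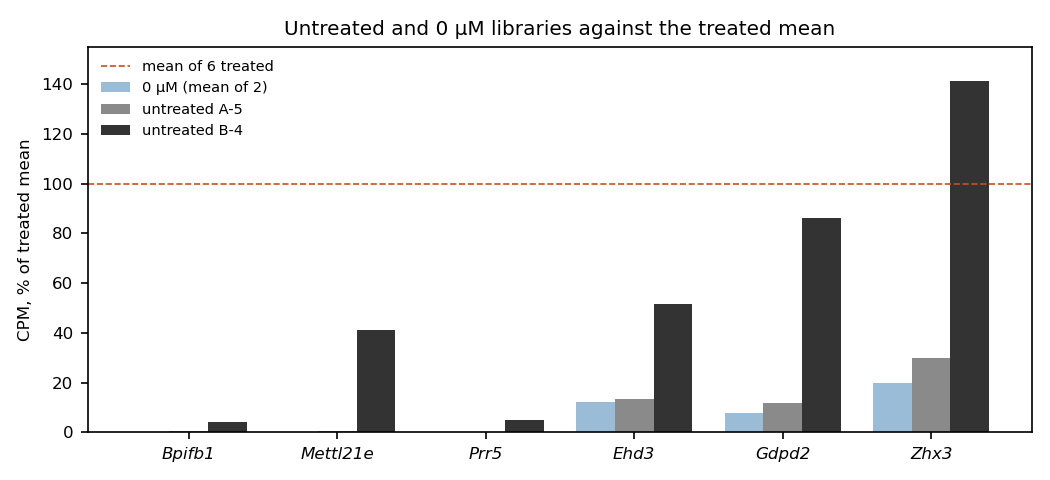
CPM of the mean at 0 μM (2 libraries) and of the untreated libraries A-5 and B-4, as a percentage of the mean of the 6 treated libraries (dashed line). B-4 ranges from 4.36% for Bpifb1 to 141% for Zhx3, while A-5 is at most 30.0%.

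The relatives and partners of the 6 genes were called about as often as genes in general. Of 73 listed genes, 72 were in the table and 57 were tested, of which 6 were called higher and 2 lower in treated cells than at 0 μM. The share called higher was 10.5%, against 13.4% of all genes tested, and the median log2 fold change was 0.05 for the lists as for all genes. None of the listed genes was called for a difference between days, where 0.805% of all genes were called higher and 0.131% lower, so this count says nothing particular about them.

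In the BPI fold family, 4 of 16 genes in the table were tested, 2 were called higher and the other 12 were too low to test. In 9 of the 16 no library reached 10 counts, and 4 of these had no count at all. Lbp, the lipopolysaccharide-binding protein, rose from 18.7 CPM at 0 μM to 63.8 ± 36.2 CPM in treated cells (SD, n = 6; log2 fold change 1.83, SE 0.56, edgeR adjusted p = 0.0246). Bpifb5 had no count at 0 μM and 9, 15 and 7 counts at 100, 150 and 200 μM on day 5 and 20, 23 and 54 counts on day 10, at least 6.59-fold above the floor (edgeR adjusted p = 9.36e-04). As Bpifb5 passed the filter on low counts through the treated libraries alone, nothing more is read from its call. Pltp, the phospholipid transfer protein, was at 244 CPM at 0 μM and 261 CPM in treated cells (edgeR adjusted p = 0.552). Bpifb9a was at 0.0295 and 0.225 CPM (edgeR adjusted p = 0.0503). Neither Pltp nor Bpifb9a was called.

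None of the 8 tested relatives of Mettl21e was called. Mettl21a, a methyltransferase of Hsp70 proteins, was at 21.7 CPM at 0 μM and 23.7 CPM in treated cells. Etfbkmt, a mitochondrial methyltransferase, was at 15.6 and 21.4 CPM (log2 fold change 0.45, edgeR adjusted p = 0.0119, within the fold limit). Mettl21c, the other muscle gene of the family, had at most 3 counts in any library and was not tested.

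Of the 16 tested genes of the mTOR complexes and their substrates, 1 was called. Deptor, an inhibitory subunit of both mTOR complexes, rose from 35.5 CPM to 121 ± 11.7 CPM (SD, n = 6; log2 fold change 1.76, SE 0.12, edgeR adjusted p = 5.7e-06). Sgk1 was at 363 CPM at 0 μM and 497 CPM in treated cells (log2 fold change 0.45, edgeR adjusted p = 0.0288), and Akt1 was at 246 and 207 CPM (-0.26, edgeR adjusted p = 0.0588), both within the fold limit. Prr5l, the closest relative of Prr5, and Rictor, the mTORC2 scaffold, were among those not called. The other 15 tested genes of the list, which include the kinase Mtor itself, thus stayed within the fold limit or missed the p limit.

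Of the 17 tested EHD proteins and partners of endocytic recycling, 2 were called higher and 1 lower. Ehbp1, which binds EHD proteins, rose from 67.4 CPM to 219 ± 42.0 CPM (SD, n = 6; log2 fold change 1.68, SE 0.19, edgeR adjusted p = 1.25e-04). Pacsin1 rose from 0.313 to 1.05 CPM (log2 fold change 1.75, edgeR adjusted p = 0.00574). Cavin1, a coat protein of caveolae, fell from 727 CPM to 363 ± 60.1 CPM (SD, n = 6; log2 fold change -1.03, SE 0.14, edgeR adjusted p = 2.65e-04). The most abundant genes not called were Cav1, at 423 and 377 CPM, and Ehd2, at 319 and 295 CPM. Of the other EHD proteins, Ehd1 was at 167 and 87.7 CPM (log2 fold change -0.94, edgeR adjusted p = 2.08e-05) and Ehd4 at 61.6 and 47.3 CPM (-0.41, edgeR adjusted p = 0.0218), both lower in treated cells but within the fold limit.

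Among the glycerophosphodiester phosphodiesterases, 1 of 6 tested genes was called higher and 1 lower. Gdpd5 fell from 18.9 CPM to 8.11 ± 1.94 CPM (SD, n = 6; log2 fold change -1.26, SE 0.18, edgeR adjusted p = 4.76e-04). Enpp6, a choline-specific phosphodiesterase, had no count at 0 μM and 2 to 14 counts in the treated libraries (edgeR adjusted p = 0.0326). Its treated mean was at least 2.41-fold above the floor. Like Bpifb5, Enpp6 passed the filter on low counts through the treated libraries alone, so nothing more is read from its call. Gpcpd1 was at 40.1 and 69.1 CPM (log2 fold change 0.77, edgeR adjusted p = 5.51e-04, within the fold limit), and Gde1 was at 42.6 and 44.0 CPM. Gdpd2 and Gdpd5 thus differed in direction. None of the 6 genes of the ZHX family and nuclear factor Y was called, with Zhx1 at 98.9 and 112 CPM and Nfya at 66.1 and 78.5 CPM.

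**Figure D4:**
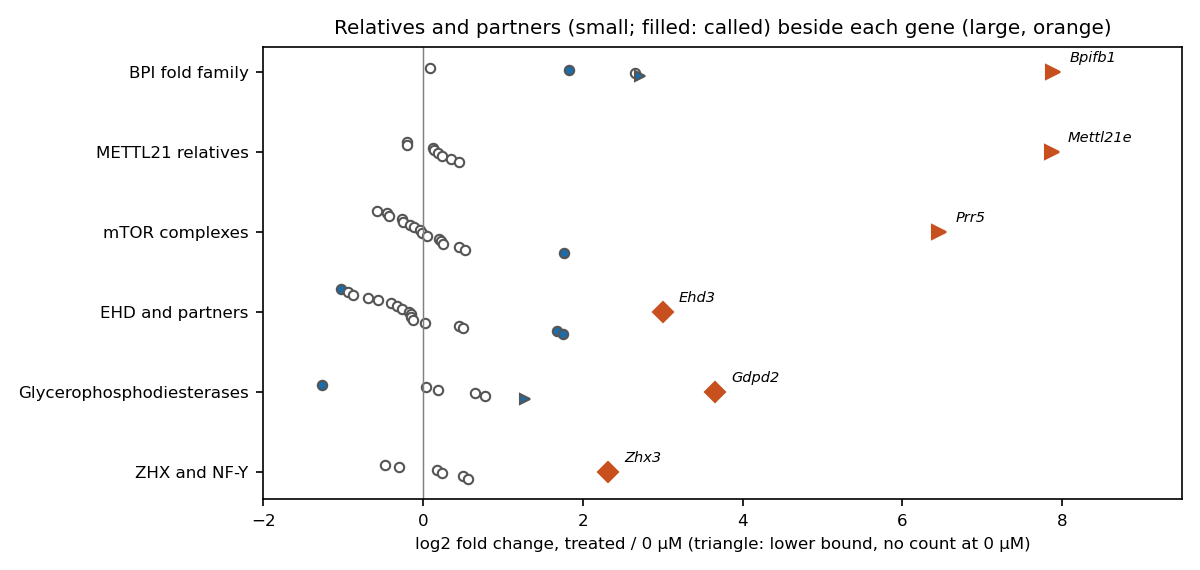
Log2 fold change of treated cells over 0 μM for the tested relatives and partners in 6 lists (small symbols, filled where called) and for each of the 6 genes (large orange symbols). Triangles are lower bounds against the floor of 3 counts, for genes with no count at 0 μM, and most relatives lie between -1 and 1.

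Genes within 100 kb were read from the same fit. Beside Bpifb1, the called gene was Bpifb5, which lies 3373 bases away on the same strand. It passed the filter on low counts through the treated libraries alone, so nothing is read from its call here either. Bpifa1 and Bpifa3 had no count in any library. Beside Zhx3, Lpin3, a phosphatidate phosphatase of the lipin family, lay 7672 bases away on the other strand and rose from 5.56 CPM to 19.9 ± 2.75 CPM (SD, n = 6; log2 fold change 1.83, SE 0.14, edgeR adjusted p = 1.16e-05). Beside Gdpd2, Kif4, a kinesin of mitotic chromosomes, lay 2659 bases away on the same strand and fell from 96.9 CPM to 38.1 ± 12.0 CPM (SD, n = 6; log2 fold change -1.42, SE 0.18, edgeR adjusted p = 1.79e-04). The neighbours of Mettl21e, Prr5 and Ehd3 that were tested, 3, 1 and 1 in number, were not called. Of those tested beside Bpifb1 and Zhx3, 1 of 2 and 1 of 5 were called higher, and beside Gdpd2 1 of 2 was called lower. Of all genes tested, 13.4% were called higher and 5.98% lower, so these few calls say nothing particular about the neighbours.

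Zhx3 overlaps Plcg1, the gene of phospholipase C gamma 1, on the opposite strand in this annotation. Plcg1 was at 117 CPM at 0 μM and 156 CPM in treated cells (log2 fold change 0.41, SE 0.09, edgeR adjusted p = 0.00642), a smaller difference than the 4.82-fold and 5.24-fold of Zhx3. The sources used here give no strand for the counting. Reads of the shared stretch thus cannot be assigned to either gene alone. The same holds for Zhx3 with Gm11447, for Gdpd2 with Gm14866 and for Mettl21e with Gm15833, all annotated on the opposite strand. Zhx3 also overlaps Gm27206 and Gm16751 on its own strand, where strand would not separate the reads.

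The listed markers of muscle and of epithelium, where Mettl21e and Bpifb1 are known, were low. Those of the osteoblast lineage ranged at 0 μM from 0.0316 CPM for Alpl to 12968 CPM for Col1a2. Sp7, Ibsp, Bglap and Bglap2 were also low there, at 5.53, 0.761, 0.346 and 1.05 CPM. Beside the counts below, 13.4% of all genes tested were called higher in treated cells and 5.98% lower. Of 10 osteoblast lineage genes, 5 were called higher in treated cells. These were Runx2, Sp7, Alpl, Ibsp and Sparc, with treated means of 223, 81.5, 43.0, 382 and 3611 CPM. Col1a1 and Col1a2, at 9351 and 12968 CPM at 0 μM, were not called. Spp1 fell from 1719 to 1227 CPM, within the fold limit (log2 fold change -0.56, edgeR adjusted p = 0.0325). Bglap and Bglap2, at 1.80 and 2.19 CPM in treated cells, were not called. The summed level of 10 skeletal muscle genes was 2.75 to 2.94 CPM at 0 μM and 5.79 to 10.1 CPM in treated libraries, and 2 of 6 tested were called higher (Des and Ckm). The muscle regulators Myod1 and Myf5 had at most 2 counts in any library and Myf6 had none. Outside this list, the muscle actinin Actn3 was not low, at 6.05 CPM at 0 μM and 240 CPM in treated cells. The summed level of 9 epithelial genes was 0.632 to 1.20 CPM at 0 μM and 0.512 to 1.85 CPM in treated libraries, with 0 of 3 tested called. Epcam had at most 3 counts in any library and Krt18 had none, while Bpifb1 was at 21.8 to 37.3 CPM on day 10. Of 7 endothelial genes 3 of 5 tested were called higher (Cdh5, Tek and Vwf), with a sum of 1.93 to 2.02 CPM at 0 μM and 5.53 to 8.38 CPM in treated libraries. Of 6 macrophage genes 1 of 3 tested was called higher (Lyz2). The macrophage sum was 17.5 to 30.2 CPM at 0 μM and 31.8 to 63.3 CPM in treated libraries. Nearly all of it was Lyz2, at 15.5 to 28.5 CPM and 30.4 to 62.1 CPM. Cd68 and Csf1r, also tested, had lower means in treated cells and were not called. Ptprc, Adgre1 and Itgam had at most 13 counts in any library. Of 6 adipocyte genes none of 4 tested was called (sum 3.41 to 3.67 and 3.17 to 5.70 CPM). The part of these cells in the rise of the 6 genes was not tested, and more cells of a type and more RNA per cell cannot be told apart in bulk RNA.

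The genes most like each of the 6 were found by the correlation of log2 CPM over the 10 libraries among 10388 genes with a mean of at least 5 CPM. All libraries are shared between the genes compared, so the values are descriptions. Bpifb1 was most like Tmem65 (r = 0.996), Kdm7a and Acsm4, and the lysine demethylase Kdm7a stood at 34.8 CPM at 0 μM, 127 CPM on day 5 and 204 CPM on day 10. Mettl21e was most like Gabrr2 (r = 0.998), a subunit of GABA receptors, which had no count at 0 μM, 7.64 CPM in treated cells and 4.30 CPM in B-4. The next were Stk17b and Tns1. Prr5 was most like Slc37a3 (r = 0.997), C1qtnf1 and Tnfrsf18. C1qtnf1, a secreted relative of adiponectin, stood at 6.36 CPM at 0 μM, 48.6 CPM on day 5 and 69.4 CPM on day 10.

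Ehd3 was most like Prune2 (r = 0.997), Hif3a and Itpr1. The inositol trisphosphate receptor Itpr1 stood at 106 CPM at 0 μM, 827 CPM on day 5 and 824 CPM on day 10, and the hypoxia-inducible factor Hif3a had no count at 0 μM or in A-5 and stood at 19.5 CPM in treated cells. Gdpd2 was most like Igdcc4 (r = 0.995), the muscle actinin Actn3 and Cnn3, and Actn3 stood at 6.05 CPM at 0 μM, 240 CPM in treated cells and 213 CPM in B-4. Zhx3 was most like Bcat2 (r = 0.995), Fkbp5 and Arl4a. Fkbp5, a co-chaperone of steroid receptors, stood at 67.8 CPM at 0 μM, 556 CPM in treated cells and 953 CPM in B-4. As for Zhx3, the level of each of its 3 most similar genes in B-4 was above the treated mean. B-4 was among the libraries of the search, so this likeness is part of how these genes were found. Of the 18 genes named, 14 were also among the 3 most alike with a prior count of 0.5, and 7 with log2(FPKM + 1). Tmem65, Tns1, Slc37a3 and C1qtnf1 were lost with the prior count of 0.5. None of the genes named for Bpifb1 or for Prr5 was kept with FPKM.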

How the data were processed

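Poly(A) RNA of MC3T3-E1 cells was sequenced on the Illumina platform by the authors, who deposited raw counts of reads per gene and FPKM for 10 libraries, 1 per dose and day and 2 untreated. The submitters' processing notes name HISAT2 2.0.4 and GATK 3.2-2 without a role, and the counting program, genome build and strand are not given in the sources used here. The table also holds the authors' fold changes and p-values for pairs of libraries, which were not used. Of its 29583 genes, 22036 carry Ensembl identifiers.

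Counts were tested over all genes with edgeR 4.0.16 (TMM, filterByExpr, quasi-likelihood) in R 4.3.3. Treated libraries were compared with 0 μM with day as a covariate, day 10 with day 5 in the 6 treated libraries with dose as a covariate, and dose as a slope per 100 μM in the same fit. Calls needed a Benjamini-Hochberg adjusted p below 0.05 and, except for the slope, a log2 fold change past 1 in size. Depth ranged from 27108562 to 58218009 counts per library, and the floor of 3 counts and the counting intervals of single libraries cover counting error only, while the intervals of day and dose changes come from the spread between libraries. Log2 CPM used a prior count of 2. Alternatives were DESeq2 1.42.0, other scalings, filters and covariates, the untreated libraries as controls, FPKM in place of CPM, and each library left out. Fits were tested on simulated data.

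The 6 genes, the lists of relatives, partners and markers, and the tests were chosen with earlier results of these data known. Named besides the 6 genes were every listed or neighbouring gene called for treatment, of each list the 2 most abundant genes not called, and for each gene the 3 most alike. Some genes were named outside this rule and chosen after their values were seen. They were Mettl21c, Prr5l, Rictor, Mtor, Plcg1, Bpifa1, Bpifa3, Gm14866, Gm11447, Gm15833, Gm27206, Gm16751, Ehd1, Ehd4 and single markers not called.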

Additional observations from a re-analysis of the deposited data

Results flagged for a closer look

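The 2 untreated libraries enter none of the tests of treatment, day and dose above. Some of the 6 genes stood higher in them than in either library at 0 μM and above the floor of 3 counts. In B-4 this held for all 6 genes, at 0.795 CPM for Bpifb1, 7.38 CPM for Mettl21e, 0.331 CPM for Prr5, 52.4 CPM for Ehd3, 187 CPM for Gdpd2 and 321 CPM for Zhx3. In A-5 it held for Gdpd2 (25.5 CPM) and Zhx3 (68.2 CPM), which exceeded the higher library at 0 μM (19.6 and 47.6 CPM). No treated library stood far from the other 5 for any of the 6 genes by Dixon's test.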

How the results depend on the processing

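The number of genes called higher in treated cells was 2254, and 1099 with at least 10 counts in every library, 1078 against the untreated libraries and 1286 with them added to 0 μM. The number lower was 1005, and 460 and 453 with the untreated libraries. For day 10 over day 5, 129 genes were higher and 21 lower, against 201 and 54 with DESeq2, 317 and 114 without a filter, and 55 lower with library totals, a scaling that moved the median of all genes by -0.13. Without 1 library, 16 to 165 were higher and 0 to 35 lower. The dose trend gave 1 higher and 1 lower with DESeq2, 49 and 59 without a filter, and 0 to 1 higher without 1 library.

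The day change of Bpifb1 was called under every alternative run (2.49 to 3.16 without 1 library). That of Prr5 (1.16 to 1.56) was not called without 4 of the 6 libraries in turn. Mettl21e was called with DESeq2 (1.07, adjusted p = 0.00146), without a filter (1.07, adjusted p = 2.02e-10) and without the day 5 library at 150 μM (range 0.81 to 1.40). Signs turned near 0 for Ehd3 (-0.092 with library totals, -0.031 to 0.12 without 1 library), Gdpd2 (-0.24 to 0.13) and Zhx3 (-0.12 to 0.10). The dose slope of Bpifb1 was called without a filter (0.93, adjusted p = 0.00236). Slopes without 1 library were 0.48 to 1.33 for Bpifb1, -0.57 to -0.13 for Gdpd2, -0.23 to 0.54 for Mettl21e, -0.052 to 0.73 for Prr5, -0.046 to 0.15 for Ehd3 and -0.13 to 0.16 for Zhx3, whose slope was -0.0037 with DESeq2 and with its size factors. The causes were not tested. The labels carry no replicate numbers. Pairing day 5 with day 10 by dose, as a 3-level block, changed no call for the 6 genes. With 1 library per dose and day, depth limits the 3 genes at 0 counts to bounds.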
